A study of Mus musculus with 8 samples.

Results

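The immediate early genes described here are 10 genes of the mouse liver transcriptome, Fos, Fosb, Jun, Junb, Egr1, Ier2, Atf3, Dusp1, Nr4a1 and Btg2, taken by symbol from a count table of 22946 gene rows. All 10 have a row of their own, and all 10 passed the filter on low counts that left 12593 rows for testing. RNA-seq of total RNA was made from livers of C57 Black mice that began their diet at 8 weeks of age and stayed on it for 8 weeks. The 8 libraries form 4 groups of 2: livers labelled MLL4 het on high fat diet (HFD; libraries 7 and 8), livers labelled MLL4 het on normal chow (libraries 3 and 4), wild-type livers on HFD (libraries 5 and 6) and wild-type livers on normal chow (libraries 1 and 2). MLL4 (KMT2D) is a histone methyltransferase of enhancers, and the study asked which diet responses depend on it. The labels give neither the altered allele nor the sex, and are silent on whether each library is its own animal, so p-values measure only the spread between libraries, which may be technical.

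Immediate early genes are switched on within minutes of a stimulus without new protein synthesis, because the factors that act on their promoters, among them SRF with its ELK partners and CREB, are already present and are activated by phosphorylation. Most of their RNAs are short-lived, and many of the proteins are transcription factors, such as the FOS and JUN proteins that pair to form AP-1, or feedback inhibitors of the kinases that started the response. In liver they are known for rapid induction by partial hepatectomy, growth factors, fasting hormones and cell stress, and also by the handling of tissue.

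Total counts ran from 14142884 to 18928676 per library, and 3 counts, taken as the limit of detection for counting error only, corresponded to 0.161 to 0.213 CPM (counts scaled to library size). Hepatocyte markers summed to 81842 and 77846 CPM in the het-labelled HFD libraries, 93795 and 88796 CPM in the het-labelled chow libraries, 81243 and 81527 CPM in wild-type HFD livers and 97112 and 90729 CPM in wild-type chow livers, as befits the tissue label. Mll2, the symbol under which the table lists the MLL4 gene, stood at 62.8 and 75.4 CPM in het-labelled HFD livers, 60.0 and 72.1 CPM in het-labelled chow livers, 63.3 and 64.7 CPM in wild-type HFD livers and 61.2 and 69.6 CPM in wild-type chow livers. Its RNA was therefore no check on the genotype label (fitted log2 difference over both diets 0.06 ± 0.09 SE, adjusted p = 0.747 by edgeR's quasi-likelihood test with Benjamini-Hochberg adjustment). Fitted changes below come from that same test over all 8 libraries, with p-values adjusted over all 12593 rows, and a gene is called at an adjusted p under 0.05.

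Promoter windows, from 250 bases before to 50 bases after the annotated start, were found in a RefSeq table of build GRCm38.p6 for 8 of the 10 genes, all but Egr1 and Ier2. They are shown for the CRE letters that most of them hold near the start; elements farther upstream, such as the known serum response element of Fos, lie outside these windows. The letters TGACG, the core of the cAMP response element (CRE) bound by CREB and ATF proteins, or their reverse complement CGTCA, stood in 7 of the 8 windows, all but Jun, against 20.8% of all 32851 promoters in the table. The full element TGACGTCA stood in 2 of the 8, Dusp1 and Btg2, against 1.79% of all promoters. Of the other motifs searched on both strands, TATAAA stood in 2 of 8 (Fos and Junb, against 13.6%), while the AP-1 site TGANTCA (7.81%), the EGR site GCGTGGGCG (0.612%) and the CArG box bound by SRF (1.63%) stood in none of the 8. These matches are of exact letters only, and each full element also counts as a match of the shorter one. Variants such as TGACATCA, which the Jun window holds, are missed, so no match does not mean no such element. Capitals mark the CRE letters in the following windows, each read 5′ to 3′ along the gene. Fos (chosen with Fosb and Junb as AP-1 genes) lies at chr12:85473640-85473939, plus strand, with its CRE letters at -129 and -66 from the start; Fosb lies at chr7:19309996-19310295, minus strand, with 1 match at -60; Junb lies at chr8:84978699-84978998, minus strand, with 1 match at -106. Nr4a1 and Dusp1, picked after their values were seen because they were not highest in the library that led most of the list, lie at chr15:101266596-101266895, plus strand and chr17:26508423-26508722, minus strand.
Fos: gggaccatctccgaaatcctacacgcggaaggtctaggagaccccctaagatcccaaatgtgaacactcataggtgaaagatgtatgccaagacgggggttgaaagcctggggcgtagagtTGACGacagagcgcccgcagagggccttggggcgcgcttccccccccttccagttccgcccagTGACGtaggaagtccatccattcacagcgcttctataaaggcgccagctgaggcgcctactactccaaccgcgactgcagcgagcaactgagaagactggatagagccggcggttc
Fosb: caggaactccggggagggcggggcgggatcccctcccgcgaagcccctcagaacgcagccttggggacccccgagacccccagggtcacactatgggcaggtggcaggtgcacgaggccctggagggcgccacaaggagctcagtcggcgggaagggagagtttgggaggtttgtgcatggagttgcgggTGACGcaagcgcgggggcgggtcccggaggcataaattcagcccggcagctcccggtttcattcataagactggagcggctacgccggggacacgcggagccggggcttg
Junb: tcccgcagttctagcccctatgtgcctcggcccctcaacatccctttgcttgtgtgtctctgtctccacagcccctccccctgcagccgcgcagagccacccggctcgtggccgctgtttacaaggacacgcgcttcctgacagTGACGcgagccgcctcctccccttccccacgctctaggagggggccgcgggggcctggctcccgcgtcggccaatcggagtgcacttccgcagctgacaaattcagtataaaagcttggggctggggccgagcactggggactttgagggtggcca
Nr4a1: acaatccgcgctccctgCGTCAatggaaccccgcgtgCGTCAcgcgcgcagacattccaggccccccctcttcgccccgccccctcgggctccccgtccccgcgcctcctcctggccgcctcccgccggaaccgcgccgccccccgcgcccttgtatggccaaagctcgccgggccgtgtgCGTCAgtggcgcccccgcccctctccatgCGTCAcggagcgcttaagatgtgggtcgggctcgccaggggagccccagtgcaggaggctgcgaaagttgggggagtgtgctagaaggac
Dusp1: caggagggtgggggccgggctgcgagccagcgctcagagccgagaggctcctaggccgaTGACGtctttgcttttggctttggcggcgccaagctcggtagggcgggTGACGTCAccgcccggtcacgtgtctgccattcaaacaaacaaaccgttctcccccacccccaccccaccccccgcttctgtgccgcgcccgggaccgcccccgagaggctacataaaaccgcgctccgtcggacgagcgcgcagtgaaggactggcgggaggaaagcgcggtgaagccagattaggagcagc

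In het-labelled livers on HFD, Fos, Fosb and Nr4a1 rose, 3 of the 10, where 1.53% of all tested rows were called higher in this comparison (3.02% in either direction). Fosb passed the filter on low counts only through these HFD libraries, where it was high, so its call adds no support to that count. The fitted change was positive for 10 of 10, with a median of 1.93 on the log2 scale (1.74 without Fosb, which rests on few counts), against -0.01 over all tested rows. In 8 of the 10, all but Junb and Egr1, both HFD libraries lay above both chow libraries, as in 22.3% of all tested rows. In wild-type livers Dusp1 was the 1 member called higher, where 2.37% of all rows were (4.59% in either direction). The median there was 0.01, against 0.02 over all rows. The fitted Dusp1 change was similar in both genotypes, 1.44 in wild-type and 1.33 in het-labelled livers, and its call depended on the method and the libraries used. The size of the median change in het-labelled livers rested largely on HFD library 8, as described below.

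**Figure D1:**
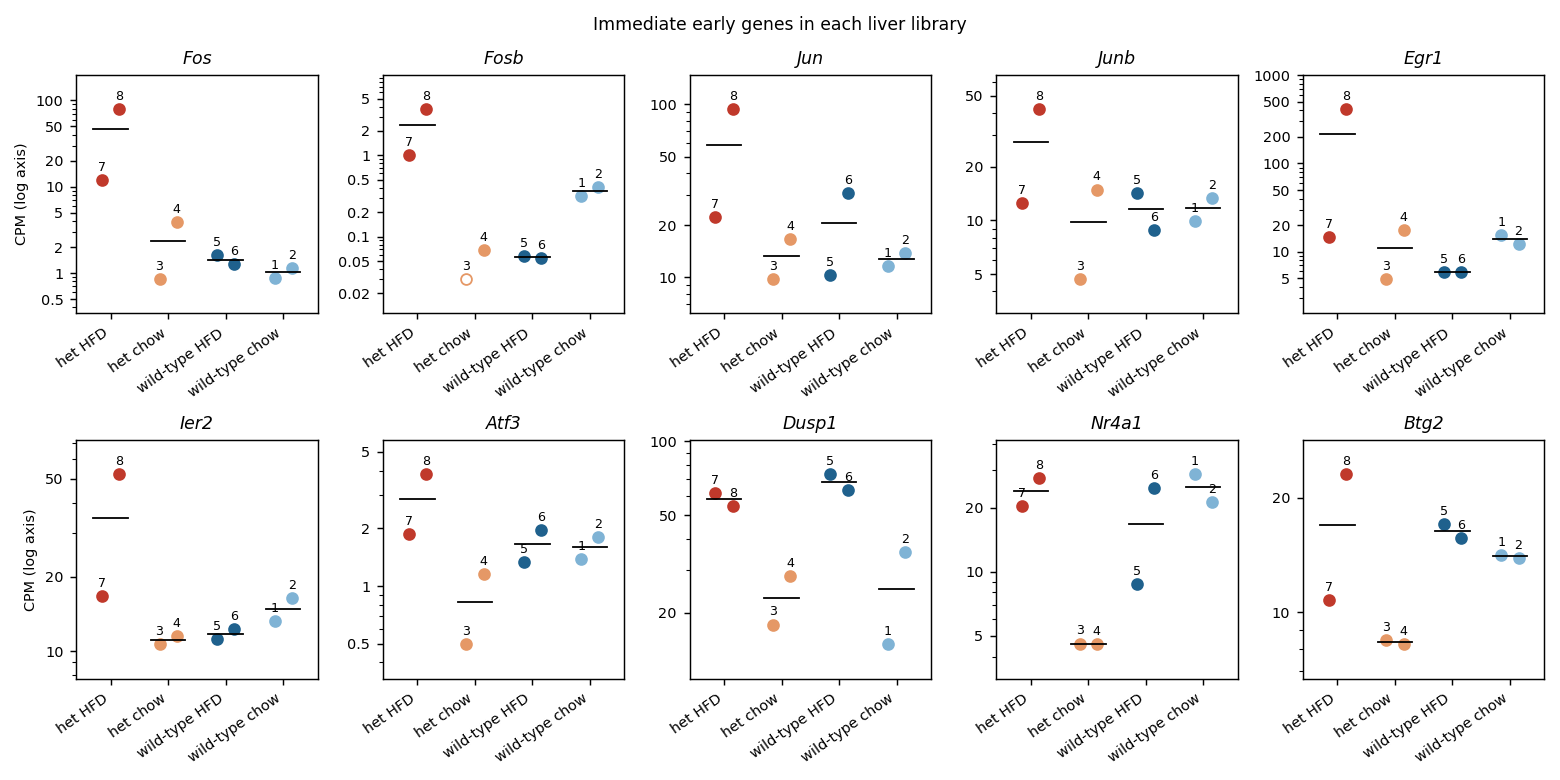
Level of each of the 10 immediate early genes in every library, in CPM on a log axis, by group, with points numbered by library and the black line at the group mean. The open circle in the Fosb panel is a library with 0 counts, drawn at the bottom of the axis, and no mean line is drawn for its group. Library 8 was the highest for 8 of the 10 genes, and Dusp1 was high in all 4 HFD libraries.

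Fos, the inducible partner of JUN proteins, was at 12.0 and 80.4 CPM (224 and 1130 counts) in het-labelled HFD livers, 0.850 and 3.88 CPM (12 and 57 counts) in het-labelled chow livers, 1.62 and 1.26 CPM in wild-type HFD livers and 0.882 and 1.16 CPM in wild-type chow livers. The het-labelled HFD libraries were the only ones above 4 CPM, although they differed from each other 6.69-fold. Fos rose with the diet in het-labelled livers by a fitted 4.26 ± 0.89 (SE) on the log2 scale (adjusted p = 0.0424 by edgeR). In wild-type livers the same change was 0.48 ± 1.40 (adjusted p = 0.891).

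Fosb, a FOS relative with the same partners, was near the limit of detection outside the het-labelled HFD livers. It had 19 and 53 counts there (1.02 and 3.77 CPM), 0 and 1 in het-labelled chow livers, 1 and 1 in wild-type HFD livers, and 5 and 7 in wild-type chow livers (0.315 and 0.406 CPM). The summed counts of 72 and 1 in het-labelled HFD and chow livers, scaled by library size, give a ratio of 63.4, with a 95% interval of 11.0 to 2540 for counting error only. The fitted change of 5.77 ± 1.08 (adjusted p = 0.0296 by edgeR) depends on the prior count and is no bound. Fosb was tested only because of its counts in the het-labelled HFD libraries, so this call is no independent support. Within wild-type livers Fosb pointed the other way, with 2 counts on HFD and 12 on chow, a ratio of 0.155 (0.0168 to 0.696, counting error only), but the fitted change of -2.53 ± 1.33 was not called (adjusted p = 0.349).

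Jun, the main partner of FOS proteins in AP-1, was at 22.4 and 94.5 CPM in het-labelled HFD livers, 9.78 and 16.7 CPM in het-labelled chow livers, 10.3 and 30.9 CPM in wild-type HFD livers and 11.6 and 13.9 CPM in wild-type chow livers. Wild-type HFD library 6 thus lay above het-labelled HFD library 7. Its diet change in het-labelled livers was 2.13 ± 0.67 and was not called (adjusted p = 0.137 by edgeR). Junb, a JUN relative that often restrains JUN, was at 12.5 and 42.4 CPM in het-labelled HFD livers, 4.68 and 14.9 CPM in het-labelled chow livers, 14.3 and 8.86 CPM in wild-type HFD livers and 9.95 and 13.4 CPM in wild-type chow livers. With library 8 aside, all other libraries of Junb lay within 4.68 to 14.9 CPM, and the 2 het-labelled groups overlapped. Its change there was 1.46 ± 0.60 (adjusted p = 0.244).

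Egr1, a zinc finger factor and classic target of SRF, had the widest range of the list in CPM (though not as a ratio). It was at 14.6 and 418 CPM (273 and 5884 counts) in het-labelled HFD livers, 4.89 and 17.4 CPM in het-labelled chow livers, 5.83 and 5.91 CPM in wild-type HFD livers and 15.5 and 12.2 CPM in wild-type chow livers. Library 8 held 24.0 times the next highest value, that of het-labelled chow library 4, and het-labelled HFD library 7 lay within the range of the other libraries. The fitted diet change in het-labelled livers was 4.27 ± 1.23, close in size to that of Fos, and was not called (adjusted p = 0.111). In wild-type livers both HFD libraries lay below both chow libraries, at a fitted -1.24 ± 1.28 (adjusted p = 0.662).

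Ier2, a small nuclear protein of the early response, was at 16.8 and 52.3 CPM in het-labelled HFD livers, 10.6 and 11.5 CPM in het-labelled chow livers, 11.1 and 12.3 CPM in wild-type HFD livers and 13.2 and 16.3 CPM in wild-type chow livers. The 6 libraries outside the first group lay within 10.6 to 16.3 CPM, and library 7 just above them. The change in het-labelled livers was 1.63 ± 0.43 (adjusted p = 0.0881). Atf3, a stress-induced repressor of the ATF/CREB family, was at 1.88 and 3.84 CPM in het-labelled HFD livers, 0.496 and 1.16 CPM in het-labelled chow livers, 1.33 and 1.97 CPM in wild-type HFD livers and 1.39 and 1.80 CPM in wild-type chow livers. Its lowest values were the het-labelled chow ones, and library 7 lay within the wild-type range. The change was 1.74 ± 0.48 (adjusted p = 0.102).

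Dusp1, Nr4a1 and Btg2 had other patterns. Dusp1, a phosphatase that switches off the MAP kinases p38 and JNK, was at 61.5 and 54.7 CPM in het-labelled HFD livers, 17.9 and 28.2 CPM in het-labelled chow livers, 73.6 and 63.5 CPM in wild-type HFD livers and 14.9 and 35.4 CPM in wild-type chow livers. All 4 HFD libraries lay above all 4 chow libraries, in both genotypes, and library 8 was the lowest of the 4. The change was 1.33 ± 0.34 in het-labelled livers (adjusted p = 0.0793) and 1.44 ± 0.34 in wild-type livers (adjusted p = 0.0484). Averaged over genotypes, Dusp1 rose by 1.39 ± 0.24 (adjusted p = 0.00883 by edgeR), and it was the 1 member called in that average, where 5.56% of all rows were called higher (10.4% in either direction). Without library 7, 6 were called in that average (6.57% of all rows), and without wild-type HFD library 5, 2 were (5.63%).

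Nr4a1, an orphan nuclear receptor that raises glucose-producing genes in mouse liver, was set apart by low chow values in het-labelled livers. It was at 20.4 and 27.7 CPM in het-labelled HFD livers, 4.61 and 4.56 CPM in het-labelled chow livers, 8.77 and 24.7 CPM in wild-type HFD livers and 28.9 and 21.4 CPM in wild-type chow livers. The het-labelled HFD values lay near the wild-type chow ones, and the het-labelled chow values were the lowest of all. It rose with the diet in het-labelled livers by 2.38 ± 0.44 (adjusted p = 0.0288 by edgeR), while the change in wild-type livers was -0.58 ± 0.38 (adjusted p = 0.469). Btg2, an antiproliferative p53 target that recruits the CCR4-NOT deadenylase, was at 10.8 and 23.1 CPM in het-labelled HFD livers, 8.43 and 8.23 CPM in het-labelled chow livers, 17.1 and 15.7 CPM in wild-type HFD livers and 14.2 and 13.9 CPM in wild-type chow livers. Its het-labelled chow values were also the lowest, and library 7 lay below every wild-type library. The change was 1.01 ± 0.30 (adjusted p = 0.119).

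**Figure D2:**
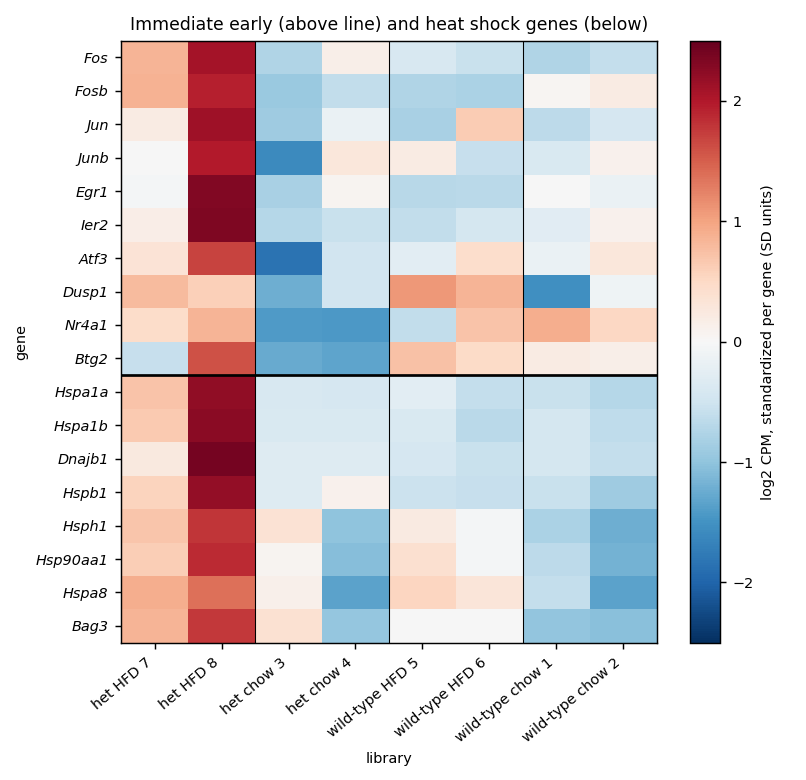
Each of the 10 genes (above the line) and of 8 heat shock genes (below it) across the 8 libraries, as log2 CPM standardized within the gene so that colours compare libraries and not genes. Het-labelled HFD library 8 is the highest for 8 of the 10 genes and all 8 heat shock genes, while Dusp1 follows the diet in both genotypes.

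Library 8 led the list. It held the highest value of 8 of the 10 genes, all but Dusp1 and Nr4a1, against 13.2% of all tested rows, and it exceeded its partner library 7 by over 2-fold in 8 of the 10, all but Dusp1 and Nr4a1, against 1.64% of all tested rows. The ratio of library 8 to library 7 was 28.6 for Egr1, 6.69 for Fos, 4.21 for Jun, 3.70 for Fosb, 3.39 for Junb, 3.12 for Ier2, 2.14 for Btg2, 2.05 for Atf3, 1.35 for Nr4a1 and 0.89 for Dusp1. At the other end, het-labelled chow library 3 was the lowest for 7 of the 10, against 18.7% of tested rows. Fitted biological coefficients of variation, 1 per gene pooled over the groups, ran from 19.6% (Btg2) to 69.6% (Egr1), where the median of all tested rows was 9.78%. The gap between libraries 8 and 7 enters these values. Outside that pair the genes differed: the Btg2 ratio was 0.98 in het-labelled chow, 0.92 in wild-type HFD and 0.98 in wild-type chow livers. Egr1 stood at 1.01 and Jun at 3.01 in wild-type HFD livers, and Dusp1 at 2.38 in wild-type chow livers.

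**Figure D3:**
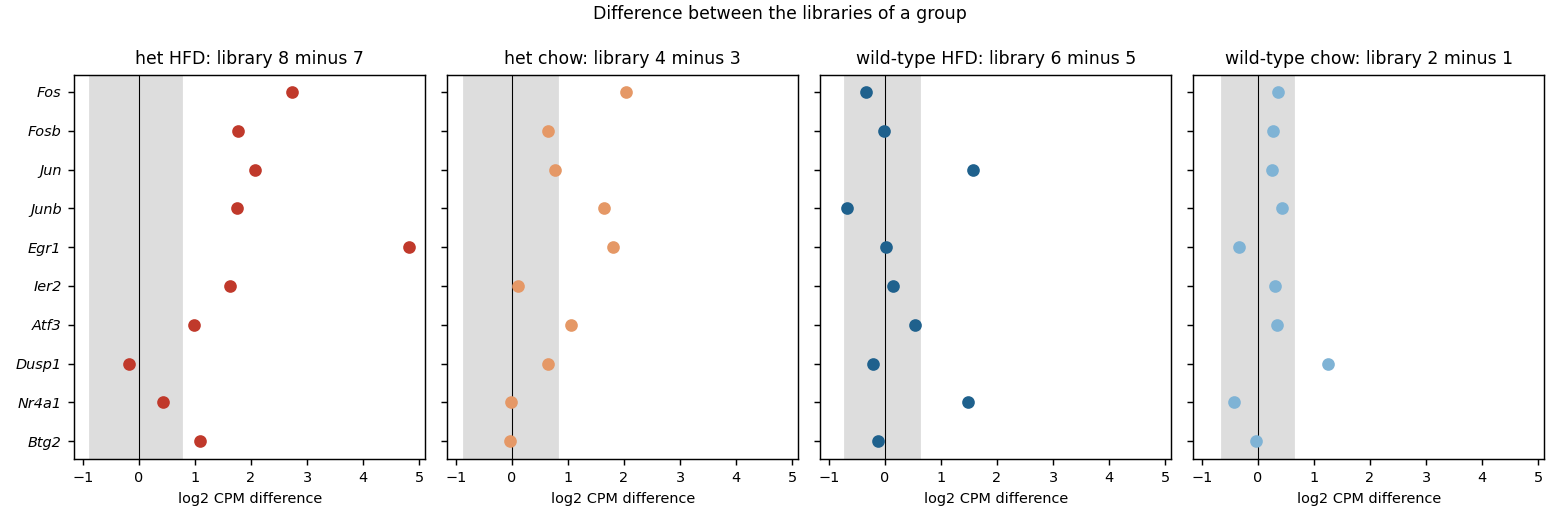
Difference in log2 CPM between the 2 libraries of each group for the 10 genes, with a grey band that spans the middle 95% of all tested rows. In the het-labelled HFD pair most genes lie beyond the band on the side of library 8, with Egr1 farthest out.

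Without library 8 the fitted diet change in het-labelled livers was 2.33 for Fos (adjusted p = 0.0612), 2.16 for Nr4a1 (0.0745), 0.76 for Jun, 0.35 for Junb, 0.39 for Egr1, 0.60 for Ier2, 1.17 for Atf3, 1.42 for Dusp1 and 0.37 for Btg2, all by edgeR with library 7 assumed to vary like the other groups. For Fosb the change without library 8 was 4.61, and the median over the 10 was 0.96. Library 7, with 19 Fosb counts, is then the only het-labelled HFD library and adds nothing to the spread. A Fosb call from that fit is therefore no support. Without library 7 instead, 6 were called (1.54% of all rows) and the median was 2.42. All 10 kept a positive sign either way. Leaving out het-labelled chow library 3 or 4 left 0 called (1.87% and 1.75% of all rows). Leaving out wild-type HFD library 5 or 6 left 2 (2.27% and 2.23%), and leaving out wild-type chow library 1 or 2 left 1 (1.13% and 1.12%).

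**Figure D4:**
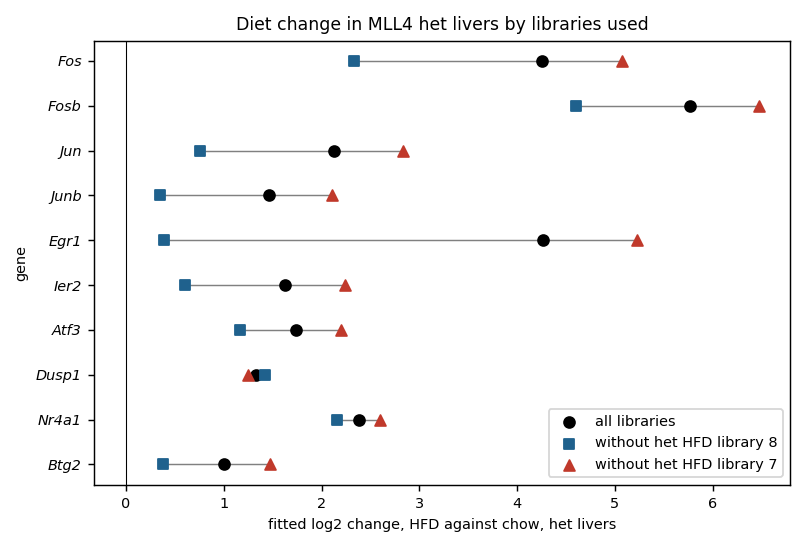
Fitted log2 change of each gene on HFD against chow in het-labelled livers, from all libraries (circles), without HFD library 8 (squares) and without HFD library 7 (triangles). Egr1 moves the most, to 0.39 without library 8, while Dusp1 stays near 1.33 and Nr4a1 near 2.38.

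In wild-type livers Dusp1 was the 1 member called with the diet, where 2.37% of all rows were called higher (4.59% in either direction). In 3 genes, Fos, Dusp1 and Btg2, both HFD libraries lay above both chow libraries (30.6% of all rows did), and in 3, Fosb, Egr1 and Ier2, below (25.2%). Fitted changes of the members not described so far were 0.70 ± 0.68 for Jun, -0.02 ± 0.61 for Junb, -0.34 ± 0.43 for Ier2, 0.05 ± 0.45 for Atf3 and 0.22 ± 0.28 for Btg2, with adjusted p-values of 0.639 to 0.992 by edgeR. The Dusp1 call ended under DESeq2 (adjusted p = 0.0507, with 5.32% of all rows called) and when library 1, 5, 6, 7 or 8 was left out. The fitted change stayed at 1.44 without library 7 or 8 (adjusted p = 0.0536 and 0.0534) and was 1.31 without library 5, 1.55 without library 6 and 0.93 without library 1. Without wild-type HFD library 6, Nr4a1 was called lower (-1.52, adjusted p = 0.0379; 1.42% of all rows were called).

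Between het-labelled and wild-type livers on HFD, 0 of the 10 were called by edgeR, where 0.445% of all rows were, although DESeq2 called 3 (1.82% of all rows). The largest fitted differences were 5.20 ± 1.30 for Egr1 (adjusted p = 0.134), 5.18 ± 0.94 for Fosb (0.0575) and 4.99 ± 0.93 for Fos (0.0609). For Fosb the 72 and 2 counts of the groups gave a scaled ratio of 39.2 (95% interval 10.5 to 330 for counting error only). Fos, Fosb, Egr1 and Ier2 lay above both wild-type HFD libraries in both het-labelled ones (22.8% of all rows did), and Dusp1 lay below (24.3%). The median was 1.36, against 0.00 over all rows, and 0.23 without library 8. Without library 7, 4 of the 10 were called (1.38% of all rows). This comparison and the diet comparison in het-labelled livers share libraries 7 and 8.

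On chow, 0 of the 10 were called between het-labelled and wild-type livers by edgeR, where 0.516% of all rows were, and 1 was called by DESeq2 (1.74% of all rows). Nr4a1 was the nearest to a call, at -2.45 ± 0.44 (adjusted p = 0.0607 by edgeR). It was called when the fit used only the 4 chow libraries (-2.45, adjusted p = 0.00921), where 0.525% of rows were called. Without HFD library 7 or 8, 2 of the 10 were called (1.01% and 1.03% of all rows), and without wild-type HFD library 5 or 6, 1 was (0.117% and 0.0312%). Fosb (-3.12 ± 1.55, adjusted p = 0.382), Btg2 (-0.75 ± 0.30, adjusted p = 0.282), Atf3 (-0.93 ± 0.52, adjusted p = 0.429) and Ier2 (-0.42 ± 0.44, adjusted p = 0.698) also lay lower in both het-labelled libraries than in both wild-type ones, 5 of the 10 with Nr4a1, as 21.9% of all rows did. The chow libraries of het-labelled livers are therefore shared by the Nr4a1 diet change and by this difference.

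The interaction is the diet change in het-labelled livers minus that in wild-type livers. It was called by edgeR for 0 of the 10 and 0 of all 12593 rows (0%), and by DESeq2 for 0 members (0.183% of all rows). The fitted interactions with the smallest p among the 10 by edgeR were 8.30 ± 1.81 for Fosb (adjusted p = 0.580), 5.51 ± 1.75 for Egr1 (0.625), 2.96 ± 0.59 for Nr4a1 (0.580), 1.97 ± 0.61 for Ier2 (0.614) and 1.69 ± 0.66 for Atf3 (0.690). That of Dusp1 was -0.11 ± 0.48, with a 95% interval of -1.19 to 0.97. Without library 7, 3 were called (0.109% of all rows), and without wild-type HFD library 6, 1 was (0.00781%). From all libraries, a diet change that differs between genotypes was not shown for any of the 10. Averaged over diets, 0 of the 10 were called by edgeR between genotypes, where 3.24% of all rows were, and 1 was called by DESeq2 (4.37% of all rows). Fos stood at 3.10 ± 0.82 (adjusted p = 0.0772 by edgeR). Without library 7, 8 or 5 the number called was 3, 2 or 1, beside 3.44%, 1.73% and 0.689% of all rows.

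**Figure D5:**
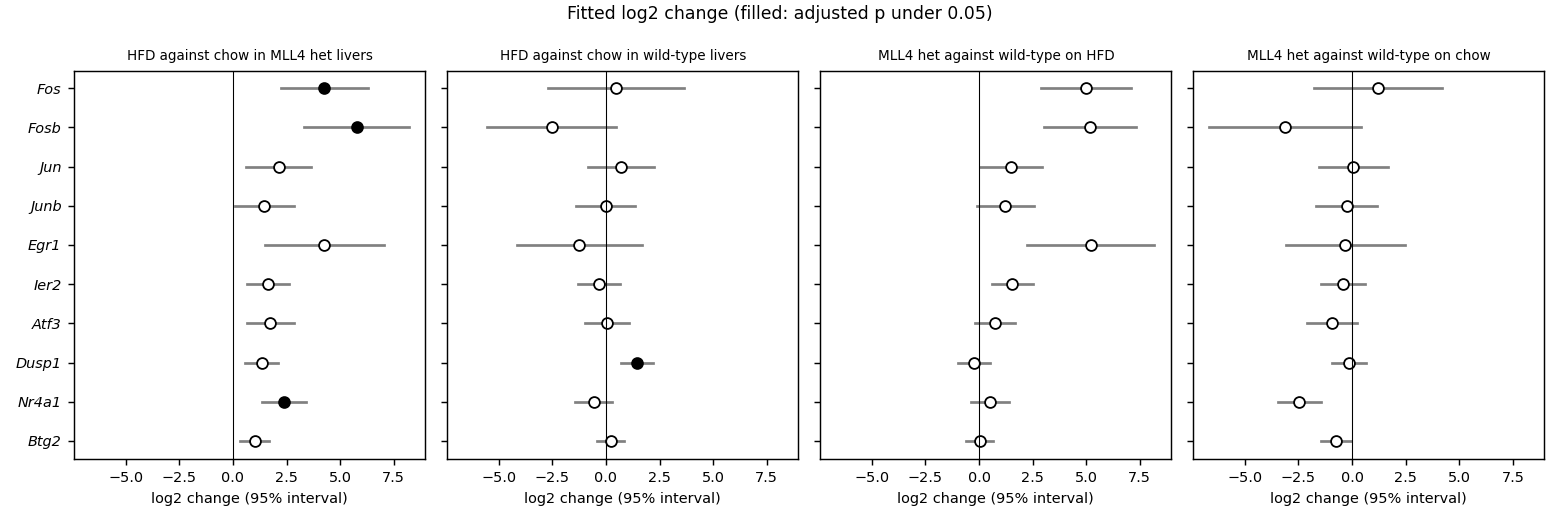
Fitted log2 changes of the 10 genes in the 4 comparisons of pairs of groups, with 95% intervals and filled symbols where the adjusted p is under 0.05. The called changes are Fos, Fosb and Nr4a1 with HFD in het-labelled livers and Dusp1 with HFD in wild-type livers.

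A wider list of early genes was tested for the same diet change. Of 35 other immediate early genes listed, 26 were tested, and in het-labelled livers on HFD 3 of them rose and 1 fell, with a median of 0.42. Of all tested rows 1.53% were called higher and 1.48% lower in this comparison. Cyr61 (CCN1), a matrix protein induced by growth factors, rose by 2.27 ± 0.36 (adjusted p = 0.0175), with 14.4 and 32.3 CPM in het-labelled HFD livers, 4.82 and 4.76 CPM in het-labelled chow livers, 12.6 and 9.73 CPM in wild-type HFD livers and 11.2 and 9.51 CPM in wild-type chow livers. Nr4a2, the relative of Nr4a1, rose by 3.08 ± 0.57 in het-labelled livers (adjusted p = 0.0281) and by 2.20 ± 0.44 in wild-type livers (adjusted p = 0.0273). Its levels were 1.66 and 1.99 CPM in het-labelled HFD livers, 0.213 and 0.204 CPM in het-labelled chow livers, 1.67 and 3.06 CPM in wild-type HFD livers and 0.315 and 0.696 CPM in wild-type chow livers, so that, as for Dusp1, all HFD libraries lay above all chow ones. Klf10 rose by 1.69 ± 0.34 (adjusted p = 0.0367) and Klf6 fell by 0.78 ± 0.15 (adjusted p = 0.0296). In this list 13 of 26 were highest in library 8 (13.2% of all tested rows were), and 6 of 26 exceeded library 7 by over 2-fold (1.64%).

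Regulators of the 10 genes and their pathways were mostly not called with the diet in het-labelled livers, where 3.02% of all tested rows were called in either direction. A count of 0 in such short lists therefore says little. Of 24 SRF, CREB and MAP kinase regulators 0 were called by edgeR; the most abundant, Egfr, the receptor of epidermal growth factor, was at 230 and 487 CPM in het-labelled HFD livers, 720 and 283 CPM in het-labelled chow livers, 125 and 124 CPM in wild-type HFD livers and 651 and 282 CPM in wild-type chow livers. Of 13 MAP kinase phosphatases and feedback inhibitors 1 rose, Dusp6, the phosphatase of ERK (1.30 ± 0.28, adjusted p = 0.0459), and of 6 BTG and CCR4-NOT partners 1 rose, Tob2 (1.13 ± 0.11, adjusted p = 0.00431). The medians were -0.03, 0.18 and 0.29 in the order given. Among 2 NAB corepressors, 9 p53 targets, 7 cAMP and fasting targets and 4 chemokines and cytokines 0 were called in this comparison, while in the ATF4 branch (7 tested) Ddit3 rose by 0.80 ± 0.17 (adjusted p = 0.0460) and Asns fell by 1.87 ± 0.36 (adjusted p = 0.0318).

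Inducible heat shock genes were highest in the same library, and their fitted diet changes were positive in both genotypes. Of 8 tested, 2 rose in het-labelled livers on HFD, where 1.53% of all rows were called higher. These were Hspa1a (3.34 ± 0.66, adjusted p = 0.0345) and Hspa1b (3.14 ± 0.63, adjusted p = 0.0370), a near-identical pair between which reads can be split. Hspa1a was at 18.5 and 94.4 CPM in het-labelled HFD livers, 5.60 and 5.44 CPM in het-labelled chow livers, 6.41 and 4.54 CPM in wild-type HFD livers and 4.73 and 3.94 CPM in wild-type chow livers. All 8 were highest in library 8 (13.2% of all rows were), and 4 of the 8 exceeded library 7 there by over 2-fold (1.64%). Averaged over genotypes, 5 of the 8 were called higher on HFD (5.56% of all rows), among them Hspa8, Bag3, Hsp90aa1 and Hsph1. In wild-type livers alone 0 were called, with a median of 0.45. Hspa8 was at 1378 and 1290 CPM in wild-type HFD livers and 995 and 803 CPM in wild-type chow livers. The part of whatever raised these genes in the early gene result was not tested. Of 16 clock genes tested, 9 rose with the diet in het-labelled livers (1.53% of all rows did) and 3 in wild-type livers (2.37%). Highest in library 8 were 0 of the 16, against 13.2% of all rows. In het-labelled livers the smallest adjusted p-values by edgeR were those of Bhlhe40 (2.42 ± 0.25, adjusted p = 0.00462), Tef (adjusted p = 0.00552), Per2 (2.12 ± 0.27, 0.00828) and Per3 (3.39 ± 0.48, 0.0121). The clock gene Per1 also counts among 8 glucocorticoid targets, of which it was the 1 called in het-labelled livers. In wild-type livers Mt1 and Mt2 of that list were called lower, as were 2.22% of all rows. The part of the time of day in the early gene values was not tested.

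Kupffer cell markers, 9 genes of the liver's resident macrophages, summed to 262 and 167 CPM in het-labelled HFD livers, 457 and 380 CPM in het-labelled chow livers, 160 and 162 CPM in wild-type HFD livers and 167 and 157 CPM in wild-type chow livers. The sum was highest in het-labelled chow livers, where all of the early genes but Fos, Jun and Egr1 had their lowest group mean, and all 9 markers were lower in library 8 than in library 7. In het-labelled livers on HFD 6 of the 9 fell, where 1.48% of all rows were called lower: C1qa, Clec4f, C1qb and Vsig4, and also C1qc and Cd5l. Other myeloid and neutrophil markers summed to 39.6 and 20.7 CPM in het-labelled HFD livers, 79.4 and 76.0 CPM in het-labelled chow livers, 21.4 and 22.1 CPM in wild-type HFD livers and 30.4 and 26.7 CPM in wild-type chow livers. In bulk liver, fewer cells of a type and less RNA per cell cannot be told apart, and the part of cell makeup in the early gene values was not tested.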

How the data were processed

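The deposited table holds raw counts of reads per gene, made by the authors from TruSeq libraries of total liver RNA sequenced on the Illumina HiSeq, per the labels' protocols. CASAVA, TopHat2, HTSeq, DESeq and the build mm9 are named per the submitters' processing notes; their versions, settings and the strand mode are not given in the sources used here. Of the 22946 rows, 374 merge several gene names and 0 of these hold a member. Groups came from the labels. The 10 members, the context gene lists and the markers were chosen with earlier results of these data known.

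From the deposited counts, edgeR 4.0.16 in R 4.3.3 filtered low rows by group size (filterByExpr), scaled by TMM and fitted a quasi-likelihood model of the 4 groups over all 8 libraries (4 residual degrees of freedom). CPM use TMM-scaled totals. Benjamini-Hochberg adjustment ran over all 12593 tested rows. Alternatives were RLE scaling, no filter, DESeq2 1.42.0, fits to 4 libraries and leaving out each library. The procedure was tested on simulated data. Replicates differed beyond sampling noise, with a chi-square per degree of freedom of 14.9 to 16.3 within pairs, so all were counted. Counting intervals assume independent reads. Of each context list described, up to 4 called genes with the smallest adjusted p are named, or up to 3 with the highest mean CPM where 0 were called and values help; the 10 rows most correlated with the mean standardized log2 CPM (prior count 2) of the members were taken as most alike. Some genes and 1 list are not reported here.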

Additional observations from a re-analysis of the deposited data

How the results depend on the processing

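RLE scaling changed no count of members called, and under each scaling the median of all tested rows stayed within 0.03 of 0 on the log2 scale. Without a filter on low counts the number called was 9 for the diet in het-labelled livers (3 as reported; 3.97% of all rows), 4 for genotype on HFD (1.51%), 1 for genotype on chow (1.83%), 1 for the interaction (0.0467%), 5 for the diet averaged over genotypes (1 as reported; 8.81%) and 2 for genotype averaged over diets (4.44%). DESeq2 called 6 for the diet in het-labelled livers (4.38% of all rows), 0 for the diet in wild-type livers (5.32%), 3 for genotype on HFD (1.82%), 1 for genotype on chow (1.74%), 3 for the averaged diet (9.11%) and 1 for the averaged genotype (4.37%). With only the 4 libraries of a comparison, 1 was called for the diet in het-labelled livers (0.864% of all rows), 2 for the diet in wild-type livers (Dusp1, and Egr1 at -1.26, adjusted p = 0.00282 by edgeR; 11.0% of all rows) and 1 for genotype on chow (0.525%). Leaving out 1 library at a time changed the number of members called in every comparison, and the share of all rows called moved as well. These swings are therefore not particular to the members. The highest numbers came without library 7 in all comparisons but the wild-type diet, and for genotype on chow also without library 8. Of 2021 comparisons of a named gene with an alternative, 1742 stayed on their side of the threshold, 160 lost a call, 119 gained one and 0 reversed. The causes were not tested. No paired analysis was possible because the library numbers 1 to 8 are shared by no groups. With 2 libraries a group, 1 library decides most calls, and Fosb and Atf3 rest on few counts. A fit that leaves out 1 library takes the spread of that group from the other groups. Without library 7 or library 8 it also loses the gap between libraries 8 and 7. The highest numbers above and the calls made without library 8 are therefore no added support.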

Other observations

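The genes whose log2 CPM followed the mean standardized level of the 10 immediate early genes most closely over the 8 libraries were Slc9a3r1, a scaffold of membrane transporters, Dffb, a nuclease of apoptosis, and Gng5, a G protein subunit. Pearson's r over 8 libraries was 0.981 for Slc9a3r1 (Spearman's rho 0.905), 0.961 for Dffb (rho 0.952) and 0.956 for Gng5 (rho 0.929). With libraries 8 and 3, the farthest from the median of that mean level, left out, r over 6 libraries was 0.867, 0.921 and 0.849 in the same order. Their ranges were narrow: Slc9a3r1 was at 156 and 182 CPM in het-labelled HFD livers, 138 and 141 CPM in het-labelled chow livers, 152 and 150 CPM in wild-type HFD livers and 149 and 151 CPM in wild-type chow livers. These genes were picked from 12593 rows for their likeness, the points share libraries and scaling, and no test was made.

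Brd2, a chromatin reader, followed in likeness, at 118 and 178 CPM in het-labelled HFD livers, 89.2 and 103 CPM in het-labelled chow livers, 101 and 112 CPM in wild-type HFD livers and 119 and 126 CPM in wild-type chow livers. Its r of 0.955 was 0.580 without libraries 8 and 3.

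Myc and Gadd45g, early genes picked after their values were seen, differed widely between het-labelled HFD libraries 7 and 8, though less than Egr1 (28.6-fold). Myc was at 1.18 and 11.4 CPM in het-labelled HFD livers, 4.39 and 32.6 CPM in het-labelled chow livers, 2.65 and 2.24 CPM in wild-type HFD livers and 3.97 and 8.75 CPM in wild-type chow livers. Gadd45g, a stress-response gene, was at 9.66 and 110 CPM in het-labelled HFD livers, 50.1 and 96.8 CPM in het-labelled chow livers, 45.3 and 48.4 CPM in wild-type HFD livers and 34.3 and 59.1 CPM in wild-type chow livers.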
